A study of Mus musculus with 17 samples.

Results

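Whole uteri of wild-type (WT) mice taken 6 h after estradiol (E2, the main ovarian estrogen) were compared with WT uteri at 0 h across all genes. The arrays were picked by their titles, which gave 2 arrays at 6 h and 2 arrays at 0 h, 4 of the 17 arrays of the study. Further arrays were used where they bear on the 6 h state: 3 of WT uteri at 3 h, 2 of Egr1 knockout (KO) uteri at 6 h and 2 of KO uteri at 0 h. The remaining 6 arrays, of WT and KO uteri at 24 h and KO uteri at 3 h, entered the shared estimate of the spread, and the 24 h arrays also gave later levels of single genes and lists. Every group was uterine total RNA taken up in Trizol and hybridised as biotin-labelled cRNA to Illumina Mouse WG-6 V2 bead arrays. The strain and age of the mice, the E2 dose, any removal of the ovaries, any vehicle given at 0 h and the kind of Egr1 allele were not stated in any label. Whether the arrays of 1 group are different animals is not stated either, so a p-value here reflects the spread among arrays, which may be technical. The values are log2 signals normalized between arrays by the authors, and every change below is a difference of log2 values, set against the other genes on the array.

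Estrogen acts in the uterus mainly through the estrogen receptor encoded by Esr1, a transcription factor that the hormone switches on. The rodent uterus is known to respond first with early gene induction, leaky vessels and water uptake, then with a build-up of RNA and protein, and later with DNA synthesis and mitosis in the epithelium and with secretion. Proteins for secretion are folded in the endoplasmic reticulum (ER), whose load is sensed by the unfolded protein response. In that response ATF6, acting together with NF-Y, binds the ER stress response element, and XBP1 binds related sites. Amino acid shortage and several stresses raise the factor ATF4, which binds elements in genes for amino acid supply and for charging tRNA.

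Promoters of 7 genes that were higher at 6 h are shown because they hold, in letters, the elements of these last 2 systems. They are RefSeq sequences of GRCm38.p6, 250 bases before to 50 bases after each annotated start, on the strand of the gene, in lower case with the match in capitals. The first 5 hold the ER stress response element, searched on both strands as CCAAT, then any 9 bases, then CCACG. Creld2, Dnajc3, Pdia6 and Calr encode proteins that fold or hold other proteins in the ER, and Syvn1 encodes the ubiquitin ligase that removes misfolded ones. The last 2, of the alanine and isoleucine tRNA synthetases, hold the ATF4 element, searched as TGATGNAAT on both strands. A match on the opposite strand stands as the reverse complement.
Creld2 (chr15:88819396-88819695, plus strand): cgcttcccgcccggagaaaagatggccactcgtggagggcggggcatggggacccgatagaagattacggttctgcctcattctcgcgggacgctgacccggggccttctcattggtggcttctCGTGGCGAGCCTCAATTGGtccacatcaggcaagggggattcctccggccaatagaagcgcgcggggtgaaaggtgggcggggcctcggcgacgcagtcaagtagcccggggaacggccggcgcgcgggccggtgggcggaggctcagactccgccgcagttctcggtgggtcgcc
Dnajc3 (chr14:118937682-118937981, plus strand): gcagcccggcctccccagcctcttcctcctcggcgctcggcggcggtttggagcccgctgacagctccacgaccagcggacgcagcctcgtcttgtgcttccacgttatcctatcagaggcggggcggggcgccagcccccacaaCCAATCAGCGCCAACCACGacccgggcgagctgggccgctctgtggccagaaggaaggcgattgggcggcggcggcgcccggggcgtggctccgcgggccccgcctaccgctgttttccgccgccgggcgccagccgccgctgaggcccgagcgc
Pdia6 (chr12:17266339-17266638, plus strand): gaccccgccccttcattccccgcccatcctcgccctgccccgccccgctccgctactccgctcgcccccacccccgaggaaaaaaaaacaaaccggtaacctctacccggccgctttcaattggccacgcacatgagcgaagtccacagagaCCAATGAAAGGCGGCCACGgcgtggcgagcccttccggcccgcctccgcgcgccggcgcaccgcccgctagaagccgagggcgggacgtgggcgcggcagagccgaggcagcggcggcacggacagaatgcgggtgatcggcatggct
Calr (chr8:84846882-84847181, minus strand): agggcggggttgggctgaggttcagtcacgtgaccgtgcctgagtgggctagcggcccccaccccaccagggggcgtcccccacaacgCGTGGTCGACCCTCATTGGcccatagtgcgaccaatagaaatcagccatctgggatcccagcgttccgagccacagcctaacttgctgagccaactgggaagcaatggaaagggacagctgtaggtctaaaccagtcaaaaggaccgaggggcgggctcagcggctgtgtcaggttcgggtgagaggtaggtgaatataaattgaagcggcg
Syvn1 (chr19:6046326-6046625, plus strand): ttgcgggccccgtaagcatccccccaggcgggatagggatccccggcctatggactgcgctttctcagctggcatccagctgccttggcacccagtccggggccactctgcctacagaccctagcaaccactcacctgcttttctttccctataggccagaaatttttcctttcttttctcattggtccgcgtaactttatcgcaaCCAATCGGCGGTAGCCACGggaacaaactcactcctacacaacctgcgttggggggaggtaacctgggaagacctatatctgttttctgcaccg
Aars (chr8:111033592-111033891, plus strand): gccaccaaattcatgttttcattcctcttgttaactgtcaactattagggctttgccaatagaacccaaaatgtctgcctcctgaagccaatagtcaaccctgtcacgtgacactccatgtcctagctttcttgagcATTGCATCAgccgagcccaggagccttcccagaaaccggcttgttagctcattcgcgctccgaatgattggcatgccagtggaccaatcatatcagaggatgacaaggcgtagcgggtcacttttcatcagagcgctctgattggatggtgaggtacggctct
Iars (chr13:49681880-49682179, plus strand): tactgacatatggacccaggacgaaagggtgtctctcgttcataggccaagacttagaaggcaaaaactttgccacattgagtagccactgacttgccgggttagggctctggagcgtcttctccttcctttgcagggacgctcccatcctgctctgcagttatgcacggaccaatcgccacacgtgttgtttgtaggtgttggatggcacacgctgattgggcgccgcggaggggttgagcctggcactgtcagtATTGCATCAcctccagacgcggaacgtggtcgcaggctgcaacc

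The match began 126 bases before the annotated start in Creld2, 105 in Dnajc3, 98 in Pdia6, 162 in Calr, 44 in Syvn1 and 113 in Aars, and 6 bases after it in Iars. The ER element stood in 8 of the 21 ER folding genes that have a promoter in the table (38.1%), against 37 of all 27025 genes in it (0.137%). Besides the 4 shown these were Canx, Ero1b, Hsp90b1 and Hspa5. Of these 8 genes 7 were higher at 6 h, with a median change of 1.21, and Canx did not pass the test. Of the 13 ER folding genes without the element 9 were higher, with a median of 0.48. Of 21 ER stress regulators with a promoter 2 held the ER element, Derl3 and Syvn1. Of these 1 was higher, and of the 19 without it 11 were. The ATF4 element stood in 3 of 14 promoters of the tRNA synthetase list (Aars, Gars and Iars), against 1.08% of all promoters. All 3 were higher at 6 h (median 1.23), as were 10 of the 11 without it (median 0.84). Against 3 h, 0 of the 3 with it and 7 of the 11 without it were higher. A match is a description of the letters in this window, and the 5-letter NF-Y box CCAAT is part of the ER element. The estrogen response element, searched on both strands as GGTCA, any 3 bases and TGACC, stood in 3 of the 11820 measured genes with a promoter (0.0254%).

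The arrays carried the marks of uterine tissue. At 6 h the smooth muscle gene Des read 12.39 and 12.51, the fibroblast gene Dcn 14.26 and 14.38 and the uterine epithelial gene Msx1 12.57 and 12.42, while the ovarian gene Cyp11a1 lay at 7.98 and 8.06, below the array median of 8.20. The mean of the 4 measured ovary and oviduct markers (12 listed) lay at 9.33 in both 6 h arrays, above that median. Across all probes the 2 WT 6 h arrays correlated at 0.99684 and the 2 WT 0 h arrays at 0.9904. The first WT 0 h array stood apart from the second. Its mean correlation with the 24 h arrays was 0.9744, against 0.9523 for the second, and its mean over the mitosis genes lay at 0.37 relative to all arrays, against -0.19. Fat cell markers also differed between the times. Their mean lay at -0.79 and -0.69 in the 6 h arrays and at 0.61 and 1.07 in the 0 h arrays, with 7 of 10 measured markers lower at 6 h and the other 3 not past the test described below. In whole tissue, fewer cells of a type and less RNA per cell cannot be told apart.

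By 6 h a large share of the measured genes had moved. Each of 14737 genes was tested with limma, and a gene was called higher or lower at an adjusted p (Benjamini-Hochberg) under 0.05. Of these, 6482 genes (44.0%) were called, 3228 higher (21.9%) and 3254 lower (22.1%). These shares depend on which dim probes are kept. With no filter on dim probes 6412 of 19057 genes were called, and with a stricter filter 5810 of 9301. Most shifts were small. Only 881 genes (5.98%) were both called and changed at least 2-fold, 361 of them higher (2.45%) and 520 lower (3.53%). When all probes of a gene were averaged, in place of its brightest one, 602 genes were. The 2 groups of arrays did not overlap for 10026 genes (68.0%). The median change over all genes was 0.002.

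The largest measured change upward was that of Klk1, tissue kallikrein, the protease that releases kinins and so widens vessels. Klk1 read 12.68 and 12.55 at 6 h, against 8.30 and 8.81 at 0 h, a change of 4.06 (SE 0.16, limma adjusted p = 1.54e-09). For this gene, Slc6a13 and Ptges the 0 h values lay close to the array median of 8.20, so the sizes and order of such rises are uncertain. Klk1b5, Klk1b26, Klk1b27 and Klk1b21, close copies of Klk1, changed by 3.64, 3.54, 2.85 and 2.58. These genes are so alike that their probes may read each other's RNA, so single members are uncertain. Slc6a13, a carrier of GABA and taurine, read 12.08 and 12.16 at 6 h and 8.03 and 8.40 at 0 h (change 3.90, SE 0.16, limma adjusted p = 1.69e-09). Slc6a13 was back at a mean of 8.45 at 24 h, while Klk1 was still at 10.78.

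Among the other 14 of the 20 largest rises were genes of the matrix, of peptide signalling, of hormone output and of the surface epithelium. Adamts4, a protease that cuts aggrecan and versican, read 11.86 and 11.66 at 6 h and 8.52 and 8.66 at 0 h, a change of 3.16. Col8a2, a network-forming collagen of basement membranes and vessel walls, changed by 2.90. Ramp3, which turns the calcitonin-receptor-like receptor into a receptor for adrenomedullin, read 12.36 and 12.50 at 6 h and 10.15 and 9.31 at 0 h (change 2.70, SE 0.22, limma adjusted p = 4.28e-07). Ptges, which makes prostaglandin E2, read 10.83 and 10.60 at 6 h, against 8.37 and 8.43 at 0 h. Socs3, a brake on cytokine receptors, was 5.08-fold higher. Tmem200a (3.26), Scgb1c1 (3.12), Phf21b (2.98), Pak3 (2.43) and Synpo (2.34) were among the rest. Padi1, which converts arginine in proteins to citrulline, reached 14.42 and 14.37 at 6 h, against 12.48 and 11.70. All 20 were chosen as called genes whose 6 h arrays lay above their 0 h arrays. For Klk1b5, Klk1b26, Col8a2 and Synpo another probe of the gene moved by less than 25% of the value given.

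**Figure D1:**
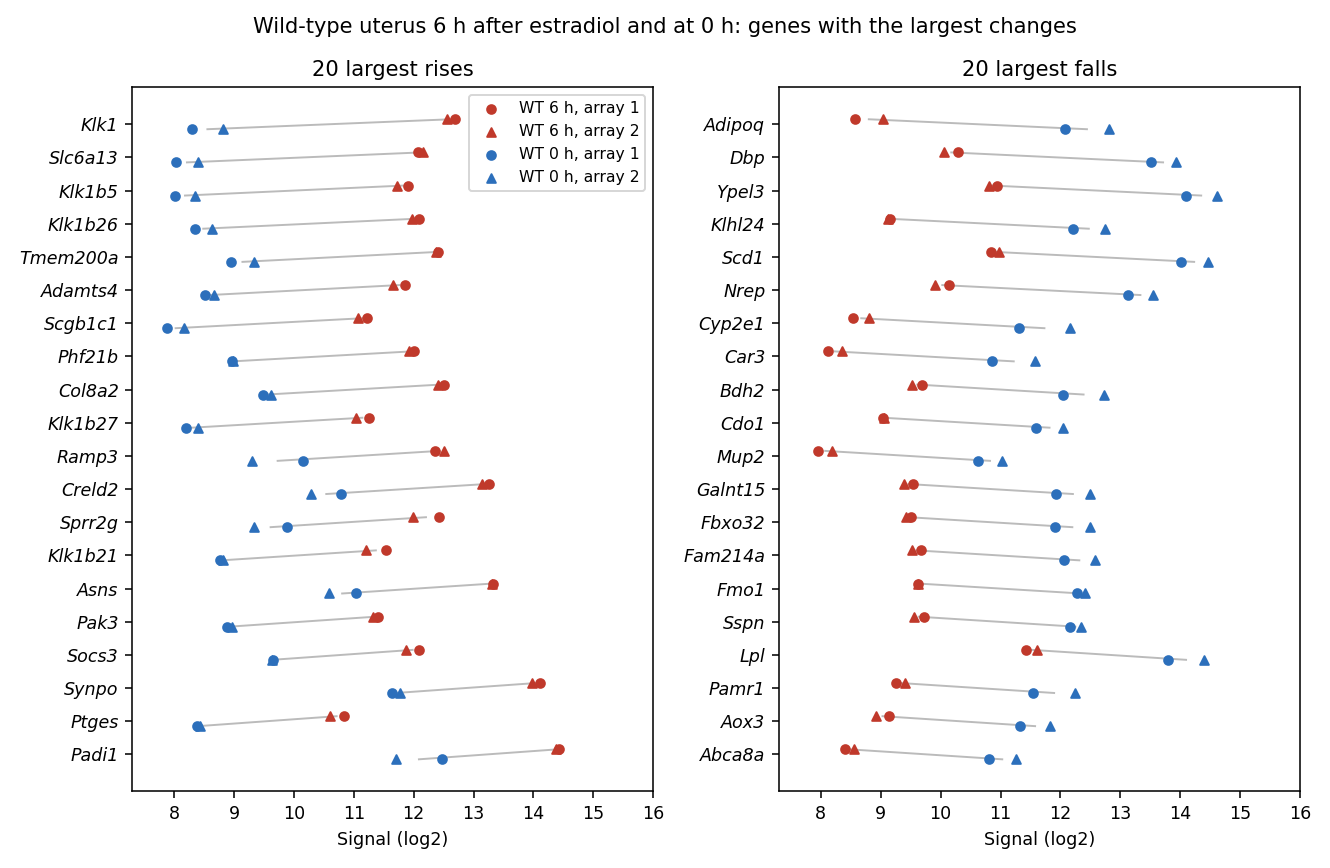
Signal (log2) on each array for the 20 genes with the largest rise (left) and the 20 with the largest fall (right), WT 6 h in red above WT 0 h in blue, circles for the first and triangles for the second array, with a grey line joining the group means. Genes were chosen for red and blue points that do not overlap, and their changes reach 4.06 in Klk1 and -3.64 in Adipoq.

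Genes tied to the clock, to protein breakdown and to growth arrest were among the 20 largest falls. Dbp, a clock-driven transcription factor, read 10.30 and 10.06 at 6 h, against 13.51 and 13.92 at 0 h, a change of -3.54 (SE 0.22, limma adjusted p = 5.86e-08). Klhl24, an ubiquitin ligase adaptor, read 9.16 and 9.11 at 6 h and 12.21 and 12.74 at 0 h (change -3.34). Fbxo32, the atrogin ubiquitin ligase that wasting muscle induces, fell by 2.73 on the log2 scale. Ypel3, a gene tied to growth arrest, changed by -3.48. Nrep, a regulator of TGF-beta signalling, read 10.14 and 9.91 at 6 h, against 13.13 and 13.55. As with the rises, the choice of these genes required groups that do not overlap.

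Genes that fat cells express strongly were among them as well. Adipoq, the fat cell hormone adiponectin, read 8.57 and 9.03 at 6 h, against 12.08 and 12.81 at 0 h (change -3.64, SE 0.73, limma adjusted p = 9.31e-04). Scd1 (-3.33), which desaturates fatty acids, Car3 (-2.99), Cdo1 (-2.77) and Lpl (-2.58), the lipase of capillary walls, also fell. Cyp2e1 changed by -3.06, and without the first WT 6 h array or the second WT 0 h array it no longer passed the test. The spread of Lpl, Scd1 and Cyp2e1 was wide, with standard errors of 0.49, 0.82 and 0.86. Adipoq, Car3 and Lpl are themselves among the fat cell markers given above, whose other lower members were Cidec, Plin4, Lep and Plin1. Lep (8.37 and 8.45) and Cidec (8.14 and 8.01) lay at about the array median of 8.20 at 6 h. The part of fat cells in these falls was not tested. Bdh2 (-2.78), Mup2 (-2.75), Sspn (-2.62), Aox3 (-2.55) and Abca8a (-2.55) also belong to the 20. Another probe of Ypel3, Lpl, Fmo1, Galnt15, Fam214a or Pamr1, all among the 20 largest falls, moved by less than 25% of its gene's value.

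Genes that signal estrogen action in the uterus were mostly high at 6 h. Of 19 measured genes of estrogen-driven growth signalling (24 listed), 13 were higher and 4 lower, with a median change of 0.78. Over all genes 21.9% were higher and 22.1% lower. These 2 shares are the background for every list counted in WT uteri at 6 h against 0 h. Here and in the lists below, counts of only 1 or 2 genes moved by up to 4 as single arrays were left out. Igf1, the growth factor that stroma makes for the epithelium, read 13.06 and 13.29 at 6 h, against 12.13 and 10.92 at 0 h (change 1.65, SE 0.30, limma adjusted p = 4.01e-04). The 0 h arrays were well apart, and both 6 h arrays lay above them, as for 34.3% of all genes. Greb1, a coactivator of the estrogen receptor, changed by 2.27. Inhba, the activin subunit, read 11.09 and 11.15 at 6 h and 8.91 and 8.96 at 0 h (change 2.18). Cdkn1a, the cell cycle inhibitor p21, rose by 2.11 and Errfi1, a brake on the EGF receptor, by 1.58. Vegfa (1.00) and Ihh (0.94), the epithelial hedgehog ligand, rose as well. Vegfd, Igfbp3, Bmp4 and Ramp2 were the 4 lower genes, at -1.39, -1.35, -0.74 and -0.54, and another Bmp4 probe changed by 0.03. Of 150 called genes that the rule for named genes chose and that had further probes, 68 had a probe that moved by less than 25% of the value or the other way.

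Immediate-early genes, which need no new protein to be switched on, were still above 0 h. Of 32 measured (33 listed), 20 were higher and 3 lower at 6 h, with a median of 0.33. Fos, a subunit of AP-1, read 10.79 and 10.74 at 6 h, against 8.99 and 8.98 at 0 h (change 1.78, SE 0.21, limma adjusted p = 9.41e-06). Egr1, the zinc finger factor that the study disrupted, read 13.85 and 13.97, against 12.24 and 12.51 (change 1.54). For both genes the 6 h arrays lay above the 0 h arrays, which held for 34.3% of all genes. Ier3 (1.55), Ccn1 (1.43), Cebpb (1.25) and Junb (1.04) rose too. Ccn2, Klf6 and Cebpd were lower, at -0.97, -0.80 and -0.26, and Myc did not pass the test (0.18). Egr3 changed by 1.40 on its brightest probe, while another probe moved by 0.08.

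Of 31 measured genes of vessel tone and water movement, 14 were higher and 6 lower, with a median of 0.14, against 21.9% and 22.1% of all genes. Without either WT 6 h array 9 were higher. Of 14 endothelial markers 9 were lower and 2 higher (median -0.37), and their part in this result was not tested. Nos3, the endothelial nitric oxide synthase, read 10.72 and 10.74 at 6 h, against 9.09 and 9.24 at 0 h (change 1.56, SE 0.09, limma adjusted p = 2.47e-08). Hpgd, which breaks prostaglandins down, read 8.72 and 8.61, against 10.50 and 10.39 (change -1.78). The water channels Aqp5 and Aqp1 moved apart. Aqp5, found in secreting epithelia, changed by 1.11 and Aqp1, found in vessels, by -1.09.

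Nearly all genes that load amino acids onto tRNA rose, and genes of amino acid supply did so in part. Of 21 measured genes of the tRNA synthetase list 20 were higher, 8 of them at least 2-fold, with a list median of 0.84. Qars did not pass the test. Aimp1 (0.35) and Aimp2 (1.01), which are in the list but are not synthetases, were among the higher genes. Nars, the asparagine enzyme, read 12.12 and 11.97 at 6 h, against 10.38 and 10.25 at 0 h (change 1.73, SE 0.12, limma adjusted p = 1.21e-07). Aars and Iars, whose promoters are printed above, changed by 1.91 and 1.23, though another probe of each moved by less than 25% of that. Of 16 serine and one-carbon genes 8 were higher and 2 lower, 6 at least 2-fold. Asns, asparagine synthetase, read 13.33 and 13.30, against 11.03 and 10.58 (change 2.51). Mthfd2, the mitochondrial folate enzyme, changed by 2.15 and Psat1, of serine synthesis, by 1.54. The 6 h arrays of these 3 genes lay above their 0 h arrays, as they did for 34.3% of all genes. Of 17 amino acid carriers 8 were higher and 4 lower, against 21.9% and 22.1% of all genes. Slc6a6, the taurine carrier, was the largest of the falls at -1.61 on its brightest probe.

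The genes for building ribosomes gave one of the broadest responses. Of 46 measured ribosome assembly genes (52 listed), 40 were higher, 16 at least 2-fold, and the other 6 did not pass the test, with a median of 0.93. Rrp12, an assembly factor, read 12.25 and 12.34 at 6 h, against 10.39 and 9.89 at 0 h (change 2.15, SE 0.14, limma adjusted p = 5.94e-08). The snoRNP proteins Nop58 and Nop56 changed by 1.65 and 1.57 and the methyltransferase Nop2 by 1.38. Both arrays at 6 h lay above both at 0 h for each, as for 34.3% of all genes. Of 28 subunits and factors of RNA polymerases I and III, 16 were higher and 1 lower (median 0.25), led by Cd3eap at 1.35 and Polr1e at 1.09. The ribosomal protein genes gave another picture. Of 34 measured, 5 were higher and 12 lower, with a median of -0.10, and 9 were higher when all probes of a gene were averaged.

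Translation, nuclear transport and nucleotide synthesis genes were often higher too. Of 35 genes of the translation initiation list, which also holds a few other translation genes, 23 were higher and 2 lower (median 0.54). The higher ones included Eef1e1 (1.29), itself not an initiation factor, Eif2b3 (1.18), Eif3c (1.15) and Eif1a (1.15). Of 37 nuclear transport genes 26 were higher and 11 did not pass (median 0.38). Ranbp1, which helps the Ran GTPase cycle, read 12.96 and 12.92 at 6 h, against 11.90 and 11.45 at 0 h (change 1.27), and the importin Ipo5 changed by 1.31. Of 9 polyamine genes 5 were higher, with Srm at 1.91 and Odc1, the rate-limiting step, at 0.88. In nucleotide synthesis 16 of 26 genes were higher and 1 lower (median 0.39). Ctps, CTP synthase, read 13.27 and 13.30, against 11.89 and 11.38 (change 1.65, SE 0.15, limma adjusted p = 1.40e-06).

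Most genes of protein folding, inside and outside the ER, were higher. Of 29 cytosolic and mitochondrial chaperone genes 25 were higher and 1 lower (median 0.57), with the chaperonin subunit Cct6a at 1.17, Hsph1 at 1.06 and the mitochondrial Hspa9 at 0.99. Of 25 ER folding genes 17 were higher, 9 at least 2-fold, and 1 lower, with a median of 0.70. Creld2 read 13.26 and 13.15 at 6 h, against 10.79 and 10.29 at 0 h, a change of 2.66 (SE 0.31, limma adjusted p = 9.91e-06). Dnajc3, a co-chaperone, changed by 1.71, Sdf2l1 by 1.52, Dnajb9 by 1.36, Pdia6 by 1.31 and Hspa5, the main ER chaperone BiP, by 1.10. Calr, calreticulin, changed by 1.35, while another probe of it changed by -0.07. The 6 h arrays lay above the 0 h arrays for each of Creld2, Dnajc3, Sdf2l1 and Pdia6, as for 34.3% of all genes. Dnajc10, a disulfide reductase, was the lower one at -0.44.

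Of 23 ER stress regulators 13 were higher and 1 lower (median 0.39). Atf4 itself read 13.03 and 12.95 at 6 h, against 11.79 and 11.71 at 0 h (change 1.24, SE 0.08, limma adjusted p = 7.85e-08). Ddit3, the stress factor CHOP, changed by 1.27 and Syvn1 by 1.38. Almost all genes for the way into and out of the ER were higher. Of 53 measured genes of ER entry, glycosylation and export 46 were higher and 7 did not pass, with a median of 0.61. Stt3a, the catalytic subunit that attaches glycans, read 11.04 and 11.12, against 9.45 and 9.47 (change 1.62). Alg2, of glycan synthesis, changed by 1.37 and Sec61a1, the pore of the ER membrane, by 1.26.

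Cholesterol synthesis genes were mostly higher. Of 18 measured genes 12 were higher and 6 did not pass the test (median 0.67). Sqle, the squalene epoxidase, read 12.39 and 12.34 at 6 h, against 11.20 and 10.29 at 0 h (change 1.62, SE 0.22, limma adjusted p = 3.99e-05). Cyp51 changed by 1.57 and Msmo1 by 1.55, while Fdps (0.93) no longer passed without the second WT 0 h array (0.25). Of the 15 genes with a promoter in the table all 15 held CCAAT on either strand, against 41.1% of all promoters. CCAAT was also common in lists that did not rise, at 76.5% of mitosis and 73.3% of clock promoters. It stood in 36.0% of proteasome promoters. The proteasome list rose too, with 27 of 30 genes higher (median 0.53), led by Psme3 at 1.25 and Psmd12 at 1.15. Mitochondrial ribosomal proteins followed with 27 of 37 higher and 1 lower (median 0.43). In oxidative phosphorylation 13 of 39 genes were higher and 2 lower (median 0.12), and 21 were higher without the first WT 0 h array. Glycolysis was mixed, with 8 of 19 higher and 5 lower, or 3 lower without either WT 6 h array. Gapdh rose by 1.13 and Pfkm, the muscle form of phosphofructokinase, changed by -1.48, while another probe of it changed by 0.04.

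**Figure D2:**
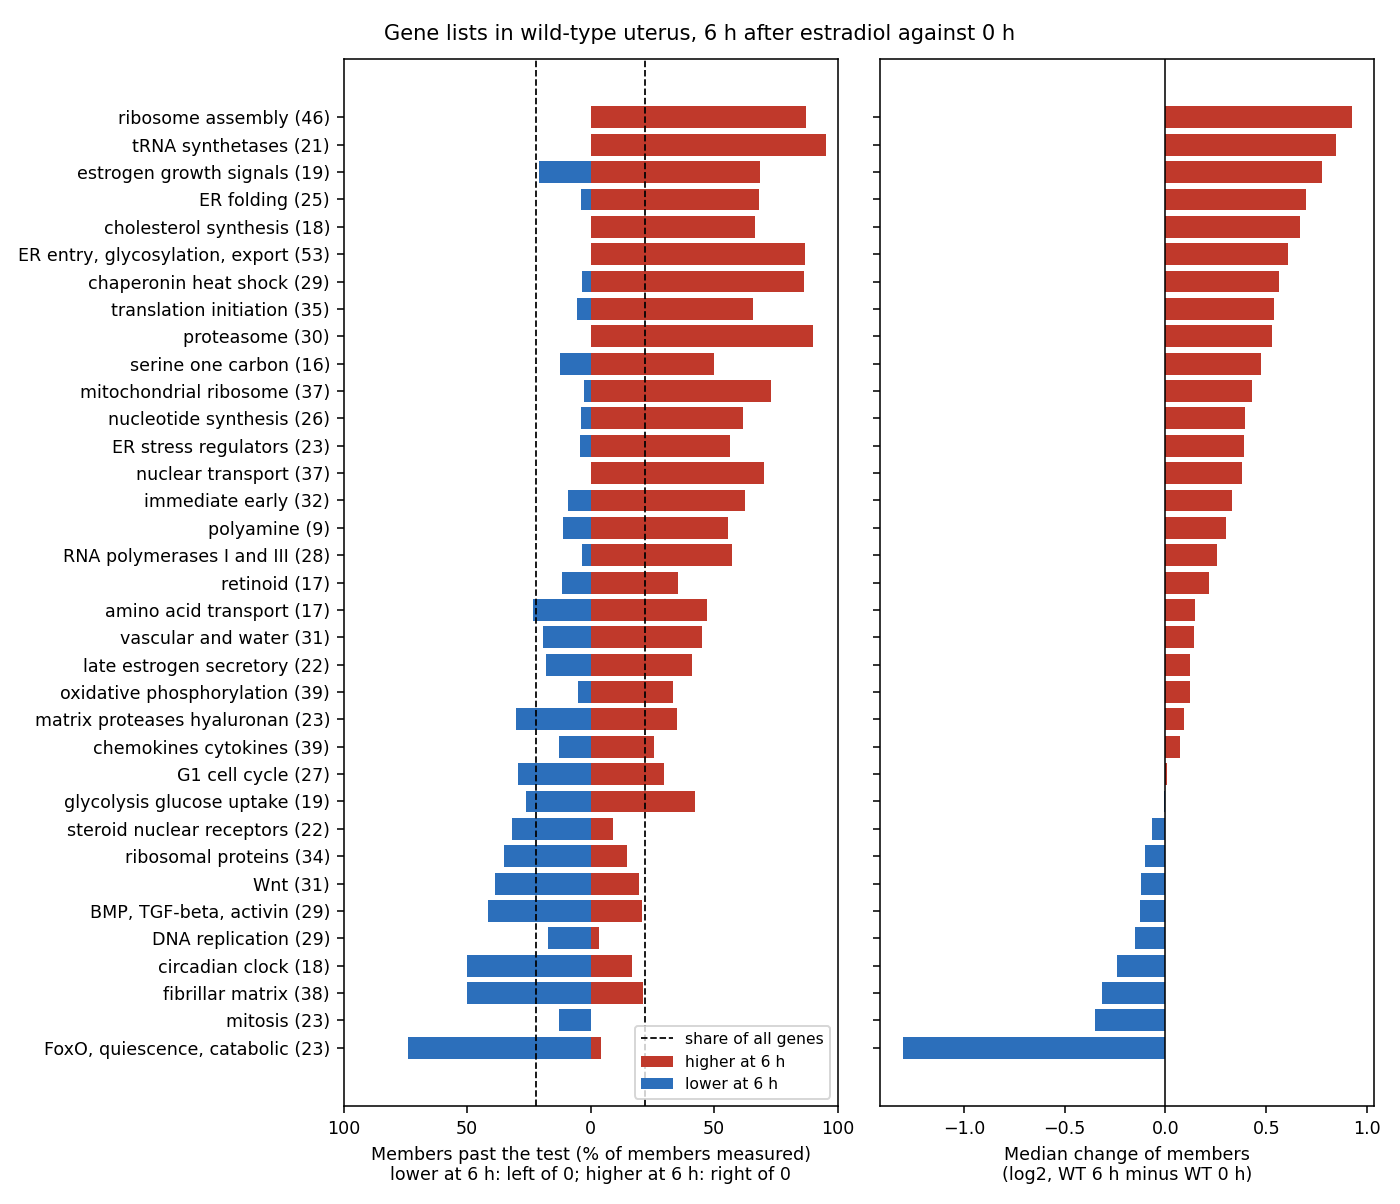
Left, the share of each list's measured genes (number in brackets) called higher (red, right of 0) or lower (blue, left of 0) at 6 h against 0 h in WT uteri, with dashed lines at the share over all genes (21.9% higher, 22.1% lower). Right, the median change of each list (log2), from 0.93 in ribosome assembly to -1.30 in the FoxO, quiescence and catabolic list.

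Few of the listed genes of DNA replication and mitosis were called higher at this time. Of 29 DNA replication genes 1 was higher and 5 lower (median -0.15), and of 23 mitosis genes 3 were lower and 20 did not pass (median -0.35). These counts rest on the first WT 0 h array, whose mitosis mean is given above and whose replication mean was 0.29 relative to all arrays, against -0.23 in the second. Without the second WT 0 h array, 16 replication genes and 15 mitosis genes were lower, while without the first WT 0 h array 1 mitosis gene was lower and 4 replication genes were higher. Plk1, a mitotic kinase, shows the pattern, at 9.08 and 9.04 at 6 h and at 10.17 and 9.14 at 0 h. Its groups were separate by a narrow margin and it did not pass the test (-0.60). Bub1b, of the spindle checkpoint, did, with 9.03 and 9.09 at 6 h against 10.70 and 10.54 (change -1.56). Of 27 genes of G1 control 8 were higher and 8 lower, near the 21.9% and 22.1% of all genes. Besides Cdkn1a, Mad2l1 rose by 1.97, and another probe of it by 1.59. Mad2l1 acts in the spindle checkpoint but was not in the mitosis list counted above. Cdkn1c (-0.86) and Mxi1 (-0.79), both brakes on growth, fell. Mxd4, another antagonist of Myc, changed by -2.33 on its brightest probe only.

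Genes of quiescence and catabolism, many of them targets of FoxO factors, fell. Of 23 measured (27 listed), 17 were lower, 14 at least 2-fold, and 1 higher, with a median of -1.30. Gabarapl1, of autophagosomes, read 10.55 and 10.46 at 6 h, against 12.00 and 12.59 at 0 h (change -1.79, SE 0.17, limma adjusted p = 1.63e-06). Pik3ip1, which restrains PI3 kinase, changed by -1.72, Trp53inp1 by -1.58, Ccng2 by -1.54, Txnip, which limits glucose uptake, by -1.52, and Irs2 by -1.30. Of the factor genes themselves, Foxo3 was higher (0.27) and Foxo1 did not pass the test (0.12). Sesn1 (-2.23) and Tsc22d3 (-1.77) had another probe that moved by less than 25% of these values.

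Clock genes shifted with Dbp. Of 18 measured, 9 were lower and 3 higher, with a median of -0.24, against 22.1% and 21.9% of all genes. Nr1d1, which encodes REV-ERB alpha, read 8.19 and 8.27 at 6 h, against 8.98 and 9.23 at 0 h (change -0.88, SE 0.11, limma adjusted p = 1.36e-05), and Per3 changed by -0.92. Arntl (0.65), Csnk1d (0.74) and Clock (0.36) were higher. At 6 h Nr1d1 sat at about the array median of 8.20. The hour of day of each collection is not stated, so time after E2 and time of day cannot be told apart.

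Receptors and paracrine signals changed in a mixed way. Of 22 measured steroid and nuclear receptors 2 were higher and 7 lower, against 21.9% and 22.1% of all genes. Pgr, the progesterone receptor and a known estrogen target, read 10.66 and 10.77 at 6 h, against 9.91 and 9.31 at 0 h (change 1.11, SE 0.14, limma adjusted p = 1.84e-05). Esr1 changed by -0.64 on its brightest probe, which did not pass without the first WT 6 h array (-0.59), and another probe moved by 0.09. Gper1, the membrane estrogen receptor, changed by -0.87 and Nr2f2, COUP-TFII of the stroma, by -0.66. Of 31 Wnt genes 6 were higher, or 3 without the second WT 6 h array, and 12 lower. Wnt4 rose by 1.17, while the Wnt inhibitors Sfrp2 and Dkk3 (-2.20 and -2.07), the agonist Rspo3 (-1.74) and the receptor Fzd2 (-1.30) fell. Sfrp2 read 8.73 and 8.64, against 10.83 and 10.92. Of 29 BMP, TGF-beta and activin genes 6 were higher and 12 lower. Tgfb2 changed by 0.76 and Id2 by -1.08, while another Id2 probe changed by -0.04. In this list and the Wnt list the higher count was near the 21.9% of all genes.

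Genes of the fibrillar matrix were more often lower than higher. Of 38 measured matrix genes 19 were lower and 8 higher, with a median of -0.31. The list mean lay at -0.19 and -0.15 in the 6 h arrays, against 0.33 and -0.05 in the 0 h arrays, so it was the first WT 0 h array that stood furthest away. Lum, the proteoglycan lumican, read 10.75 and 10.77 at 6 h, against 13.31 and 12.77 at 0 h (change -2.28, SE 0.19, limma adjusted p = 4.97e-07). Prelp changed by -2.25. Col1a1, of type I collagen, read 10.08 and 10.40, against 13.14 and 11.06, and its change of -1.86 did not pass without the first WT 0 h array (-0.82). Of 23 matrix protease and hyaluronan genes 8 were higher and 7 lower, against 21.9% and 22.1% of all genes. Adamts1 (1.55), Adamts9 (1.44) and the inhibitor Timp1 (1.45) rose, and Mmp11 (-1.86) and Mmp10 (-1.58) fell. These falls came with fibroblast markers, of which 6 of 11 were lower and 1 higher (median -0.76), and their mean lay at -0.28 and -0.21 in the 6 h arrays and at 0.43 and 0.31 in the 0 h arrays. Dcn changed by -0.82. Lum and Dcn stand in both lists. The part of the fibroblast markers in the matrix result was not tested.

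Chemokine and cytokine genes were near the background as a list, with 10 of 39 higher and 5 lower (median 0.07), or 3 lower without the second WT 6 h array. Single ones stood out. Icam1, the leukocyte adhesion receptor, read 11.41 and 11.39 at 6 h, against 9.44 and 9.58 at 0 h (change 1.89, SE 0.07, limma adjusted p = 1.46e-09). The monocyte attractants Ccl12 and Ccl7 changed by 1.86 and 1.50 and the eosinophil attractant Ccl11 by 1.61. Markers of blood cells stood as follows. Of 12 macrophage markers 1 was lower and 11 did not pass, and the mean of 10 granulocyte markers lay at 8.15 and 8.20 in the 6 h arrays and at 8.18 and 8.17 in the 0 h arrays, about the array median. The retinoid gene Aldh1a2, which makes retinoic acid, read 10.92 and 10.86, against 9.27 and 8.84 (change 1.83).

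Of 22 measured genes of the later secretory response 9 were higher and 4 lower, against 21.9% and 22.1% of all genes. Lcn2, lipocalin 2, a secreted iron-siderophore binder of the epithelium, read 13.82 and 13.71 at 6 h, against 12.35 and 11.06 at 0 h (change 2.06, SE 0.34, limma adjusted p = 1.67e-04). Sprr2g, a cornified envelope protein from a family of close copies, changed by 2.59. Clca1, a mucus-associated secreted protease, was lower (-1.59) and reached 13.40 at 24 h. Epithelial markers gave no common shift, with 3 of 14 higher and 2 lower (median -0.01). Smooth muscle markers were 4 higher and 2 lower of 12, against the same 21.9% and 22.1% of all genes. Among the endothelial markers given above, the tight junction gene Cldn5 stood at 9.99 and 9.77, against 11.34 and 12.00 (change -1.79). Mesothelial markers were lower in 6 of 7, or in 3 without either the second WT 0 h or the second WT 6 h array.

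The state at 6 h was also set against that at 3 h, which shares no 0 h array but shares the 6 h arrays with the comparison above. Of all genes 3831 (26.0%) differed, 1957 higher at 6 h (13.3%) and 1874 lower (12.7%), and 144 (0.977%) did so at least 2-fold. Fewer genes were called without either WT 6 h array, when the 6 h mean rested on 1 array and the spread came from the other groups. The lists differed in how their 6 h levels stood to those at 3 h. Of 32 immediate-early genes 22 were lower at 6 h than at 3 h and 1 higher (median -0.58). Fos averaged 10.77 at 6 h and 12.47 at 3 h (change -1.71). Of 46 ribosome assembly genes 8 were higher than at 3 h and 2 lower (median 0.03), and without the first or second WT 6 h array 3 and 5 were higher.

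Most ER and cholesterol genes were higher at 6 h than at 3 h. Of 25 ER folding genes 19 were higher at 6 h than at 3 h (median 0.53), or 11 without either WT 6 h array, and of 53 genes of ER entry, glycosylation and export 38 were higher (median 0.41). Sdf2l1 read 10.56 and 10.61 at 6 h, against 9.11, 8.81 and 9.15 at 3 h (change 1.57, SE 0.29, limma adjusted p = 1.28e-03). Alg2 and Dnajb9 changed by 1.19 each and Creld2 by 1.07. In cholesterol synthesis 14 of 18 genes were higher than at 3 h (median 0.46), or 9 without the first WT 6 h array, and the list went on to its highest mean at 24 h. Of 26 nucleotide synthesis genes 14 were higher, and 8 without either WT 6 h array or 9 without the second WT 3 h array. Of 23 ER stress regulators 6 were higher and 5 lower, and without the first WT 6 h array 3 were higher.

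Single genes of this second step had other profiles. Ccl11 averaged 9.66 at 0 h, 9.54 at 3 h, 11.28 at 6 h and 11.42 at 24 h, a 6 h change against 3 h of 1.74 (SE 0.32, limma adjusted p = 1.37e-03). Rxfp2, a receptor of the relaxin family, was at a mean of 9.08 at 3 h and 10.56 at 6 h and back at 9.14 at 24 h. Sox5 (1.96), Lcn2 (1.65), Angptl4 (1.62) and Tnc (1.62) were also among the largest of these rises, and Sox5 and Tnc had another probe that moved by less than 25% of their 6 h change from 0 h. The steepest fall after 3 h was that of Chac1, a glutathione-degrading enzyme induced by ATF4. Its mean was 12.89 at 3 h and 9.09 at 6 h (change -3.80, limma adjusted p = 2.85e-04), close to the 0 h mean of 8.81. Trib3, another ATF4 target, fell by 1.71 and Tob1, an antiproliferative gene, by 2.02, while Cars, the cysteine tRNA synthetase, was the synthetase lower than at 3 h (-1.35). The water channel Aqp5 (-1.52) and Wnt4 (-1.58) were past their highest mean as well.

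**Figure D3:**
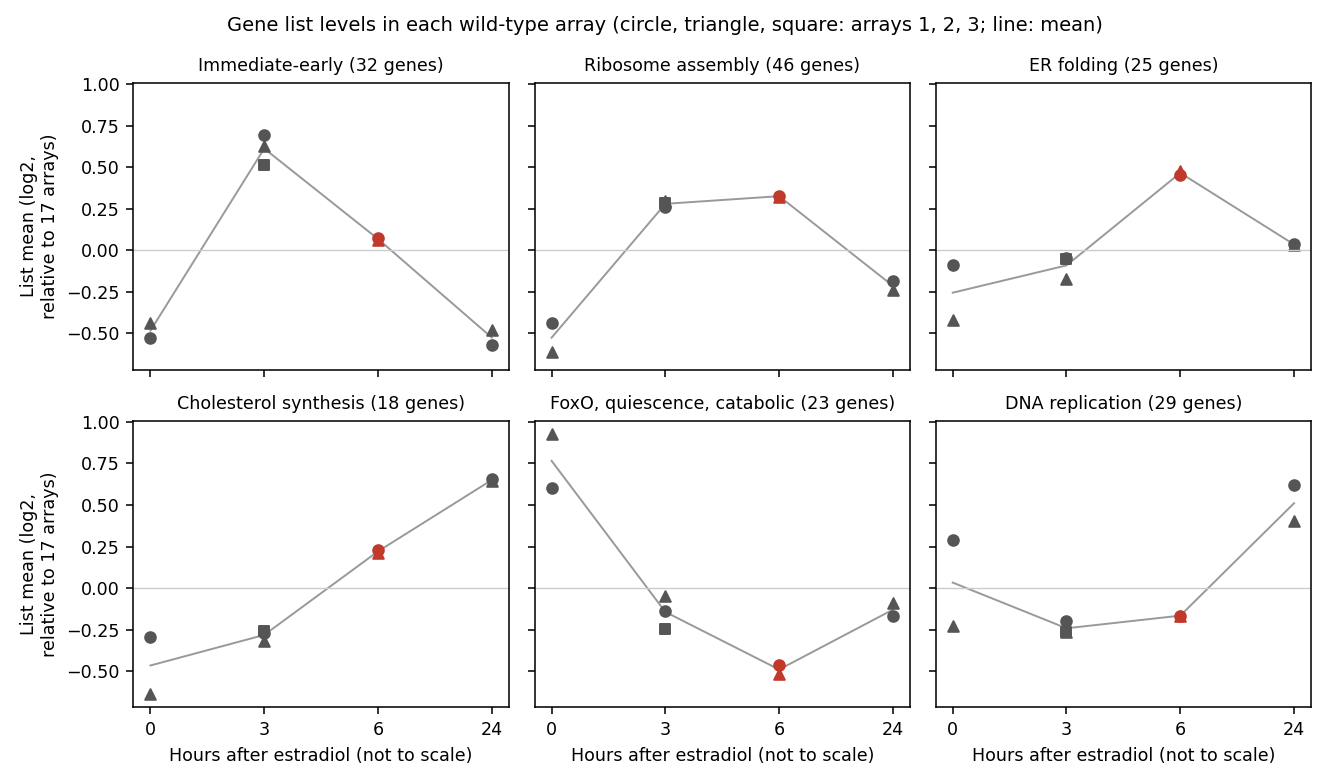
Mean of 6 gene lists on each WT array (log2, relative to the mean of each gene over all 17 arrays) over the hours 0, 3, 6 and 24 of E2 treatment, with one symbol per array, a line through the group means and the 6 h arrays in red. At 6 h the ER folding list is at its highest group mean and the FoxO list at its lowest, while the immediate-early list is highest at 3 h.

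The 6 h response of KO uteri was set against that of WT uteri through the interaction, the KO change minus the WT change. The Egr1 signal does not check these labels. It read 14.74 and 14.55 in the KO 6 h arrays, against 13.85 and 13.97 in the WT 6 h arrays, and where its probe lies relative to the disrupted part is not stated. Of all genes 59 (0.4%) differed in their response, 29 with a higher (0.197%) and 30 with a lower (0.204%) KO change. This count depended on the arrays. It was 1 in a fit of the 0 h and 6 h arrays alone, and ran from 9 to 497 as single arrays were left out, with 497 without the second WT 0 h array and 9 without the second KO 0 h or the first WT 6 h array. Some KO arrays stood apart in cell markers. The mean of the macrophage markers lay at 0.19 and 0.95 in the KO 0 h arrays and that of the granulocyte markers at -0.04 and 0.86, while the fat cell mean lay at -0.72 and 0.48 in the KO 6 h arrays. The part of these markers in the differences below was not tested.

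Single genes differed in several ways. Cited4, a coactivator, changed by 0.13 in KO and by 1.32 in WT uteri (difference -1.19, SE 0.15, limma adjusted p = 6.47e-03). In the KO arrays it read 10.10 and 10.34 at 6 h and 10.05 and 10.14 at 0 h, and in the WT arrays 11.13 and 10.99 at 6 h and 9.73 and 9.76 at 0 h. Slc25a33, a mitochondrial nucleotide carrier, changed by -0.68 in KO and by 0.64 in WT uteri. Cxcl14, a chemokine, changed by -0.16 in KO and by -1.38 in WT uteri. Other genes were called with a small WT change. Slc7a11, the cystine carrier, changed by 1.53 in KO and by 0.03 in WT uteri, Wnt7a by 1.06 in KO and -0.02 in WT uteri, and Hpgds, a prostaglandin D synthase, by -1.67 in KO and 0.16 in WT uteri. None of these 6 genes passed the test in the fit of the 0 h and 6 h arrays alone, where Srek1 (1.08) was the gene called. Slc7a11 and Wnt7a also failed it without the second KO 0 h array or either WT 6 h array, and Slc7a11 without the first WT 0 h array or with its probes averaged (0.37). Of the gene lists above, none had more than 1 member with a differing response in either direction, at adjusted p-values over all genes. With only 0.4% of all genes called, lists of these sizes would hold few such members in any case. These counts therefore cannot tell whether the responses of the lists differ between KO and WT uteri. In KO uteri alone 6613 genes (44.9%) were called at 6 h against 0 h, 3218 of them higher (21.8%) and 3395 lower (23.0%), with 40 of 46 ribosome assembly genes and 16 of 25 ER folding genes higher.

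**Figure D4:**
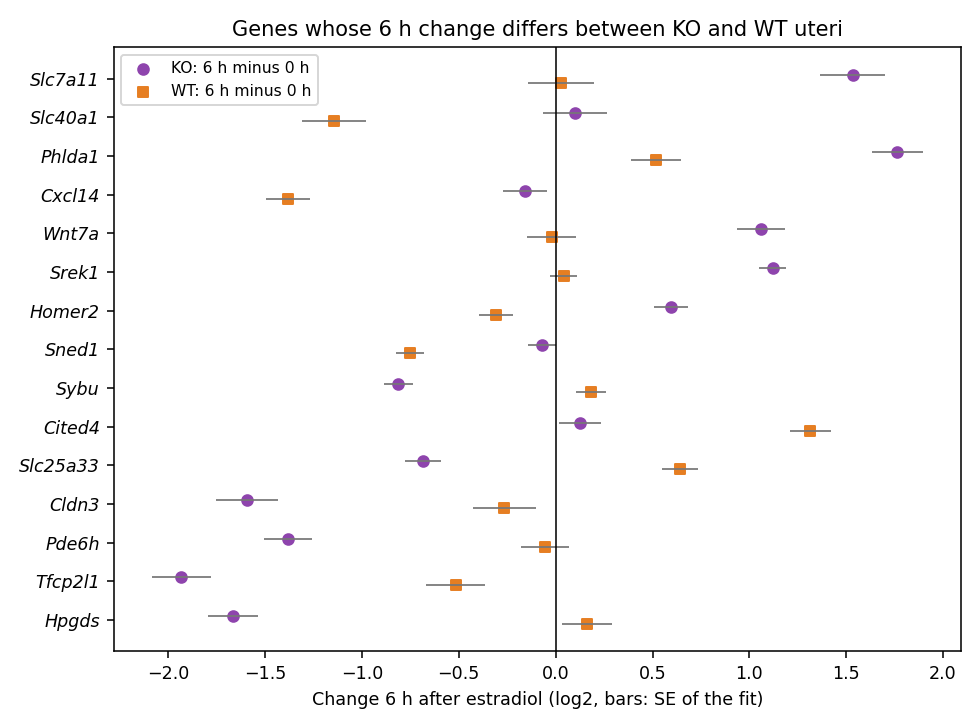
Change 6 h after E2 (log2, with the standard error of the fit) in KO uteri (purple circles) and WT uteri (orange squares) for the 15 genes named for a differing response. The genes were chosen by the test of this difference, which runs from -1.83 in Hpgds to 1.50 in Slc7a11 as KO change minus WT change, and 1 of them was called in the fit of the 0 h and 6 h arrays alone.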

How the data were processed

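Total uterine RNA was measured on 17 arrays. Per the submitters' processing notes the scans were read with BeadStudio. The authors deposited log2 values that share one set of quantiles on all 17 arrays, so they had been quantile normalized. No label or header names the normalization software, background correction or offset, and scanner values and detection calls were not used here. The table holds 45281 probes. Of these 34885 were listed with 1 gene symbol, 18 with several and 10378 with none, and 34807 matched the RefSeq gene table (GRCm38). Probes above the array median on at least 2 arrays were kept, and the brightest probe stood for its gene (14737 genes). limma 3.58.1 in R 4.3.3 fitted 8 group means (9 residual and 4.56 prior degrees of freedom), with two-sided tests and Benjamini-Hochberg adjustment over all genes. The fit was also run on simulated data to check that its code works, and no result here rests on that run. The number of arrays limits the precision.

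The arrays compared, the gene lists and the promoter motifs were chosen with earlier results of these data known. Genes named were the 20 largest rises and 20 largest falls that were called with no overlap between WT 6 h and WT 0 h, the 10 of each against WT 3 h, the 10 smallest p-values and the 5 highest and 5 lowest of the interaction, and the 6 largest changes of each list, with others named in counts or lists after their values were seen. Same-numbered arrays of WT 6 h and WT 0 h deviated with a correlation of -0.07, and no label ties a number to an animal or a day, so the numbers were not used as pairs. Alternatives covered the arrays fitted, the replicate number as a block, single arrays left out, the probe filter, the probe of a gene, centring, an intensity trend and array weights.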

Additional observations from a re-analysis of the deposited data

Results flagged for a closer look

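Of the 59 genes whose change at 6 h differed between KO and WT uteri by the test of the difference itself (limma interaction, adjusted p under 0.05 over all genes), 15 were chosen by smallest p or largest size. Each difference below is KO minus WT on the log2 scale. In 7 of the 15 the KO change was the lower one. The differences were -1.83 for Hpgds, -1.42 for Tfcp2l1, -1.33 for Pde6h, -1.33 for Cldn3, -1.33 for Slc25a33, -1.19 for Cited4 and -0.995 for Sybu. Cited4 is the one of these with a large response in WT uteri, at 0.13 in KO and 1.32 in WT uteri. In the other 8 the KO change was the higher one. The differences were 1.50 for Slc7a11, 1.25 for Slc40a1, 1.24 for Phlda1, 1.22 for Cxcl14, 1.08 for Wnt7a, 1.08 for Srek1, 0.90 for Homer2 and 0.68 for Sned1. Slc40a1, the iron exporter ferroportin, changed by 0.10 in KO and -1.15 in WT uteri, and Sned1, a matrix protein, by -0.07 in KO and -0.75 in WT uteri. Homer2 and Slc25a33 moved in opposite directions, by 0.59 in KO and -0.31 in WT uteri for Homer2 and by -0.68 in KO and 0.64 in WT uteri for Slc25a33. Averaging the probes of a gene gave differences of 0.37 for Slc7a11, 0.25 for Srek1 and 0.28 for Sned1, none past the test. With 0 h and 6 h arrays alone only Srek1 passed. Many of the 15 also no longer passed without the second KO 0 h array. That array had the higher macrophage and granulocyte marker means of the KO 0 h arrays.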

How the results depend on the processing

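The counts over all genes for WT 6 h against WT 0 h and for KO 6 h against KO 0 h stayed within 1.5 times their value in every alternative run, including a fit of the 4 WT 6 h and WT 0 h arrays alone (5527 genes against 6482). The number of genes tested changed with the probe filter, so shares of all genes moved more than counts did. Counts within single lists moved further in places, as given beside them. With the replicate number as a block, which pairs nothing by the labels, 6428 genes were called for WT 6 h against WT 0 h, 3338 for WT 6 h against WT 3 h and 55 for the interaction. For WT 6 h against WT 3 h, leaving out single arrays gave 2100 to 3348 genes called, 1047 to 1652 higher and 1053 to 1702 lower, and averaging the probes of a gene left 84 genes at 2-fold, in place of 144. Averaging probes shrinks a gene's change where its probes disagree. The interaction was the least stable. It had 1 gene called (1 higher, 0 lower at the adjusted threshold of limma) with the 0 h and 6 h arrays only, 37 (10 higher) with probes averaged and 19 higher with array weights. Leaving out single arrays gave 9 to 497 genes, 3 to 265 higher and 5 to 232 lower, and the cause was not tested. No called gene that is named turned its direction in any alternative. A lone array left in a group was assumed to vary like the other groups. Dim probes near the array median bound the rises and falls that can be measured, and no detection call was used to set a limit.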
